A study of Mus musculus with 3 samples.

Results

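The genes described here are 9 cytoskeletal and membrane genes of CD11b+ dendritic cells (DCs) of the mouse spleen: Arap2, Tns1, Actn1, Plb1 and Slco5a1, which were picked because their values were higher on the control Esam(hi) array, and Arap1, Arap3, Tns3 and Actn4, close paralogs kept for contrast. All 9 were found, in 20 probe sets that name 1 gene each, out of 35556 probe sets and 19938 named genes in the table. Because the 5 genes were chosen on the control Esam(hi) values, their difference between the control arrays is given as a description and supports nothing. The study sorted CD11c(hi) CD11b+ DCs, antigen-presenting cells that take up material and show it to T cells, and read their RNA on Affymetrix Mouse Gene 1.0 ST arrays, with 1 array per group. In controls the Esam(hi) GFP(lo) cells and the Esam(lo) GFP(hi) cells were sorted apart, giving the control Esam(hi) and the control Esam(lo) array; both came from Cx3cr1-GFP+ RBPJflox/flox mice without Cre. The third was Esam(lo) GFP(hi) cells of their Cx3cr1-GFP+ RBPJflox/flox CD11c-Cre+ littermates, in which Rbpj is deleted where CD11c-Cre is active. The GFP reporter in Cx3cr1 and the floxed Rbpj alleles were thus shared by all groups, each array held RNA pooled from 2 to 3 mice, and the sources used here give no ages.

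Dendritic cells crawl, probe and take up material by remodelling a mesh of actin filaments beneath the membrane. Alpha-actinins bundle the filaments, tensins tie them to the tails of integrins at adhesion sites, and ARAP proteins switch off small GTPases of the Arf family, which steer membrane traffic and adhesion turnover. Plb1 and Slco5a1 are membrane genes of other kinds, a phospholipase and a transporter. RBPJ is the DNA-binding protein through which Notch receptors act on genes, and it recognises a short motif with the core TGGGAA. That core was searched on both strands, so its reverse complement counts too. It is shown in capitals in the promoter windows printed for genes that hold it.

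There were no replicates, so no difference below has a replicate check, and no test, p-value or error between samples can be given. Values are log2 expression values made by RMA; a difference of 1 is 2-fold. Where 3 values follow each other the control Esam(hi) value is first, the control Esam(lo) value second and the RBPJ-deficient value last. A gene was counted as different when 2 arrays were at least 2-fold apart and the brighter one was above background, taken as the 95th percentile of 1190 chemosensory receptor genes on that array (7.16 for control Esam(hi), 6.75 for control Esam(lo) and 6.87 for RBPJ-deficient cells). Between the control arrays most differences ran one way: the Esam(hi) array had 75 genes at higher and 1067 at lower values, a lower share of 93.4% that became 81.3% with quantile normalization and 73.1% with the level trend removed, and the median of all genes moved from -0.32 to -0.11 and -0.05. For the RBPJ-deficient array against the control Esam(hi) array, the corresponding lower shares were 8.37%, 22.7% and 28.2%. Rbpj itself read 9.85, 9.85 and 10.04 in probe set 10521913 and was below background in 10521911; where these probes sit relative to the deletion was not determined, so the values do not check the label, and the RBPJ-deficient array is called so by its label. DC markers were above background in 7 of 7 cases on every array, but so were 7 of 7 neutrophil markers, so this does not check the sort. Esam read 7.79, 6.57 and 6.12, above background on the control Esam(hi) array alone. The other markers of the sort list were above background on every array and lowest on the control Esam(hi) array. Itgam read 9.50, 10.57 and 10.79, Sirpa 11.72, 12.16 and 12.16, and Cx3cr1 8.32, 9.58 and 9.58.

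By the probe set of highest mean, all 5 picked genes were more than 2-fold brighter in control Esam(hi) than in control Esam(lo) cells. None of the 4 paralogs was. In Tns1 and Plb1, with 6 and 7 probe sets, no other probe set was 2-fold apart between the controls. Among 9210 genes above background, 0.814% were called higher in this comparison, and since the rule used this contrast nothing is read from the count. The RBPJ-deficient Esam(lo) array also read at least 2-fold below the control Esam(hi) array for the same 5 genes, a comparison in which 1.18% of 9319 genes were called lower; that count shares the control Esam(hi) array on which the genes were chosen. The choice did not use the RBPJ-deficient array, although its comparison with control Esam(lo) cells shares the control Esam(lo) array. There none of the 9 genes was 2-fold apart; of 9381 genes 0.0746% were higher, 0.192% lower and 0.266% apart in either direction. The median difference of the 9 genes was 0, as was that of all genes, but exact ties made up 4 of the 9 and 40.1% of the 9381. A tie gives no size for a difference, so these medians do not show equal expression. In sorted bulk RNA, fewer expressing cells and less RNA per cell cannot be told apart.

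**Figure D1:**
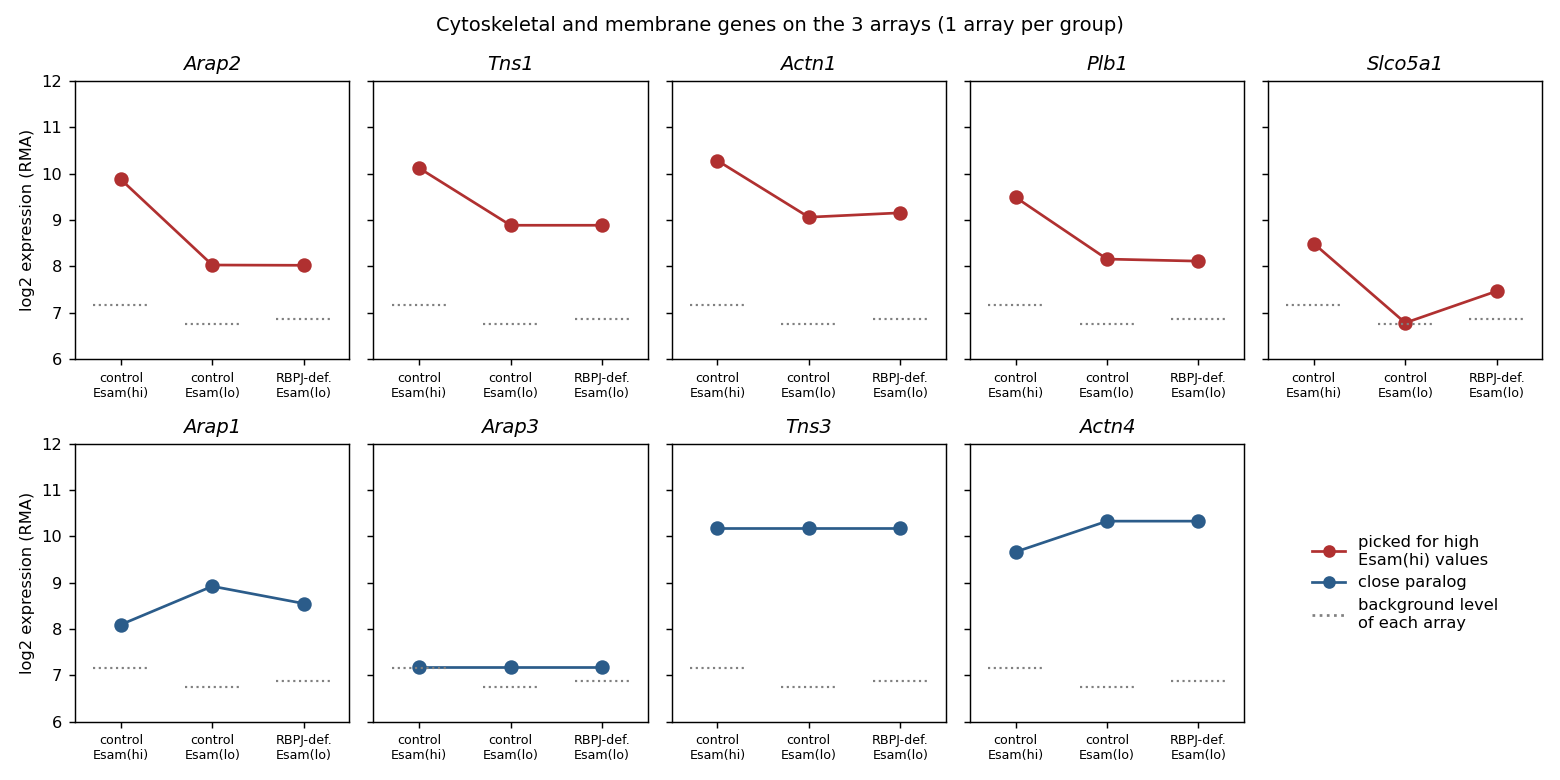
Log2 expression (vertical axis) of each gene, by its probe set of highest mean, on the 3 arrays (horizontal axis), 1 point per array, with each array's background level as a dotted line. The 5 picked genes (red) are highest on the control Esam(hi) array, whereas Arap1 and Actn4 (blue) are lowest there and Arap3 and Tns3 have the same value on every array.

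The ARAP family differed among its members. Arap2 (probe set 10530100), which inactivates Arf6 at adhesion sites, read 9.88 on the control Esam(hi), 8.03 on the control Esam(lo) and 8.02 on the RBPJ-deficient array. The value was thus high on the Esam(hi) array alone, and the Esam(lo) arrays of both genotypes differed by -0.01. The control difference was 1.85 (3.60-fold), in the contrast on which Arap2 was picked, so its size is a description only. The fold against the RBPJ-deficient array, which uses the same control Esam(hi) value, was 3.61. Arap1 (10555470), which acts on Arf proteins of the Golgi and of endocytic traffic, went the other way, with 8.10, 8.92 and 8.55. Its control difference was -0.83 (1.78-fold lower), short of the 2-fold rule, and it became -0.45 with the level trend removed. The median of all genes was -0.32 in this comparison, and 18.1% of 10240 single-gene probe sets above background had a lower difference than Arap1. On the RBPJ-deficient array Arap1 lay between the controls (difference from the control Esam(lo) value -0.37); 2.60% of genes differed more in size between these arrays. Arap3 (10458498), a phosphoinositide-gated GAP for Arf6, read 7.18 on every array, barely above the Esam(hi) background.

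Equal values on several arrays are no evidence of equal expression. The median polish step of RMA often returns exact ties over few arrays, and 57.1% of genes had a tie between at least 2 arrays, 19.0% on all 3. Arap3 and Tns3 were among the latter. For this reason the values of Arap3, of Tns3 and of the tied Tns1 and Actn4 arrays give no size for a difference.

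The tensins were read by 6 probe sets for Tns1 and 1 for Tns3. The Tns1 probe set with the highest mean, 10355528, read 10.12 on the control Esam(hi) array and 8.89 on both Esam(lo) arrays, a difference of 1.23 (2.35-fold). The other 5 Tns1 probe sets did not reach 2-fold between the controls, with differences of 0.41 (10355514), 0.34 (10355536), 0.27 (10355532), 0.14 (10355534) and -0.30 (10355530). One of the 6 was thus lower on the control Esam(hi) array, and the mean over all 6 differed by 0.35. The platform's annotation assigns all 6 to a shared Tns1 transcript, and each of the 5 but not 10355528 to a further curated transcript; the exons that each covers were not analysed here.

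Between the Esam(lo) arrays the Tns1 probe sets split the other way. Probe set 10355528 was tied, but the other 5 were all lower on the RBPJ-deficient array. Probe set 10355534 read 8.63 on the control Esam(lo) and 7.96 on the RBPJ-deficient array, a difference of -0.67, and 10355530 read 8.08 and 7.52, a difference of -0.57. The remaining differences were -0.41 (10355536), -0.40 (10355514) and -0.26 (10355532). Of 10424 single-gene probe sets above background, 0.576% had a lower difference than 10355534 and 2.79% a lower one than 10355532. These 5 probe sets read 1 gene in 1 pair of arrays, so they are not replicates, and none was 2-fold apart. All 6 Tns1 probe sets were lower on the RBPJ-deficient than on the control Esam(hi) array, with differences from -1.23 to -0.27. Tns3 (10384233), a paralog with the same kinds of domains, read 10.17 on every array; its control difference was -0.11 with median centring and 0.42 with the level trend removed, so it has no settled sign.

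**Figure D2:**
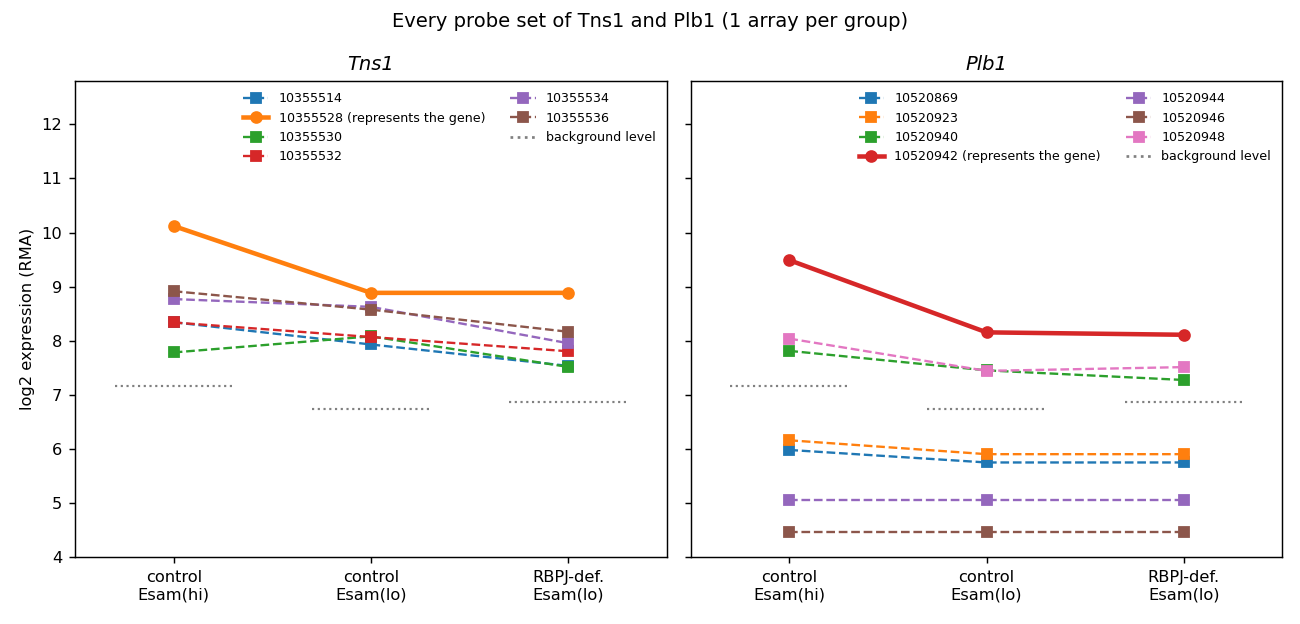
Log2 expression (vertical axis) of every probe set of Tns1 (left) and Plb1 (right) on the 3 arrays (horizontal axis); lines join the values of 1 probe set, the thick line marks the one that represents the gene, and dotted lines mark background. In each gene 1 probe set differs by 2-fold or more between the controls, and 4 of the 7 Plb1 probe sets lie below background throughout.

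The Tns1 promoter window from RefSeq (250 bases before to 50 after the transcript start; GRCm38.p6, chr1:74124499-74124798, minus strand) is printed because it holds 1 match to the RBPJ core. The match, in capitals, begins at -202 from the transcript start and lies on the opposite strand.
Tns1: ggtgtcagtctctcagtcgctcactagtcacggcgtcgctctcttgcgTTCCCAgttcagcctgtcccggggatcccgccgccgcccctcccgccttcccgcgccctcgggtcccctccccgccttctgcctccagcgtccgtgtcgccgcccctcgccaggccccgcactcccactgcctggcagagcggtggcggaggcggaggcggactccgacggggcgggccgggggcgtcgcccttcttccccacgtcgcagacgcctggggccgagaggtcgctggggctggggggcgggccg

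The alpha-actinins, which bundle actin filaments, differed in direction. Actn1 (10401244) read 10.28 on the control Esam(hi), 9.06 on the control Esam(lo) and 9.16 on the RBPJ-deficient array. Both Esam(lo) arrays were lower than the Esam(hi) array, by 2.33-fold in the control and 2.19-fold in the RBPJ-deficient cells, and they differed from each other by 0.09. Actn4 (10561527) read 9.66, 10.33 and 10.33, so it was lowest where Actn1 was highest. Its control difference of -0.66 (1.58-fold lower) did not reach 2-fold and became -0.24 with the level trend removed. Lower values on the Esam(hi) array were common, with a median of -0.32 for all genes. Of 10240 single-gene probe sets above background, 27.0% had a lower difference than Actn4. The muscle forms Actn2 and Actn3 were below background on all arrays.

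The promoter windows of both nonmuscle alpha-actinins hold the RBPJ core and are shown for comparison (GRCm38.p6; Actn1 at chr12:80260314-80260613 and Actn4 at chr7:28962283-28962582, each on the minus strand). The matches in capitals begin at -225, on the gene's strand, and -131, on the opposite strand, in Actn1, and at -224, on the gene's strand, in Actn4.
Actn1: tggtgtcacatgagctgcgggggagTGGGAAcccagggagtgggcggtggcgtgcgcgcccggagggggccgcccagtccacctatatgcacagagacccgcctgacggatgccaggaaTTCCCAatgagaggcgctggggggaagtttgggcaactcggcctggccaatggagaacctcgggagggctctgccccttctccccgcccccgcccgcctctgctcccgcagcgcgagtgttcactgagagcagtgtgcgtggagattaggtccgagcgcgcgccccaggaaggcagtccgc
Actn4: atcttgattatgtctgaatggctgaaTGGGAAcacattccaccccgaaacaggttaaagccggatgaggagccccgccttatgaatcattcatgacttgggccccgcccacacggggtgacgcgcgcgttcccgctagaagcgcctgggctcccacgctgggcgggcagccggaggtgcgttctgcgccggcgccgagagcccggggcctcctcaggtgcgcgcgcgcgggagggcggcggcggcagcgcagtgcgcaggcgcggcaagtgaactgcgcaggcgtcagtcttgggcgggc

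Plb1 encodes a membrane-bound phospholipase B that cuts fatty acids from phospholipids, and 7 probe sets read it. The brightest, 10520942, read 9.49 on the control Esam(hi), 8.16 on the control Esam(lo) and 8.11 on the RBPJ-deficient array. The Esam(hi) value stood 2.52-fold above the control Esam(lo) and 2.60-fold above the RBPJ-deficient value, and the Esam(lo) arrays differed by -0.04. Probe set 10520948 read 8.04, 7.45 and 7.52, and 10520940 read 7.82, 7.45 and 7.28, so both were highest on the Esam(hi) array without reaching 2-fold (1.51-fold and 1.28-fold between the controls). The other 4 probe sets were below background on all 3 arrays, at values from 4.47 to 6.16, and the mean over all 7 differed by 0.40 between the controls.

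Of the Plb1 windows in the RefSeq table, the one at chr5:32238834-32239133 (GRCm38.p6, plus strand) holds the RBPJ core, beginning at -143 on the gene's strand, and the one at chr5:32353330-32353629 does not.
Plb1: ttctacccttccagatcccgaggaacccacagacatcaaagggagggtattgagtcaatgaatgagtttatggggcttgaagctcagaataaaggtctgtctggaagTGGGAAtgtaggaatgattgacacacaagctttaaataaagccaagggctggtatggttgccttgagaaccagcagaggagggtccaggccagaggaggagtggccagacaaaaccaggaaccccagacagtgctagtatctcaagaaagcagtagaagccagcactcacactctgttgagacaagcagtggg

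Over all members, 10 windows of 7 genes were in the table, and 4 of the 10 held the core on either strand, against 25.6% of 32851 windows of this length. No match was found in the windows of Arap2, Arap1 and Tns3. At least 2 matches, as in Actn1, were in 3.79% of windows. The member windows held from 49.0% (Plb1) to 81.7% (Arap2) G and C, with 75.7% in Tns1, against a median of 52.7% over all windows. The windows of Arap3 and Slco5a1 are not given here. A match describes the letters in a window and is not a binding site, and these arrays did not measure binding.

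Slco5a1 (10353117), of the organic anion transporter family, was the picked gene whose values differed most between the Esam(lo) arrays, although Tns1 probe set 10355534 differed nearly as much (-0.67). Slco5a1 read 8.49 on the control Esam(hi), 6.78 on the control Esam(lo) and 7.47 on the RBPJ-deficient array, each above that array's background, the control Esam(lo) value barely so. The Esam(hi) value was 3.27-fold above the control Esam(lo) and 2.04-fold above the RBPJ-deficient value. The RBPJ-deficient array thus lay between the controls, 0.68 (1.61-fold) above the control Esam(lo) array. Of 9381 genes above background, 62 (0.661%) differed by more than this between the Esam(lo) arrays. With each array centred on its median the difference from the control Esam(hi) array was -0.92, short of 2-fold. It was -1.25 with quantile normalization and -1.28 with the level trend removed. Of 14 other Slco genes only Slco3a1 was above background, named after its values were seen, with 8.98, 9.49 and 8.58. It was lowest on the RBPJ-deficient array, with a difference of -0.91 from the control Esam(lo) value, where Slco5a1 was the higher.

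**Figure D3:**
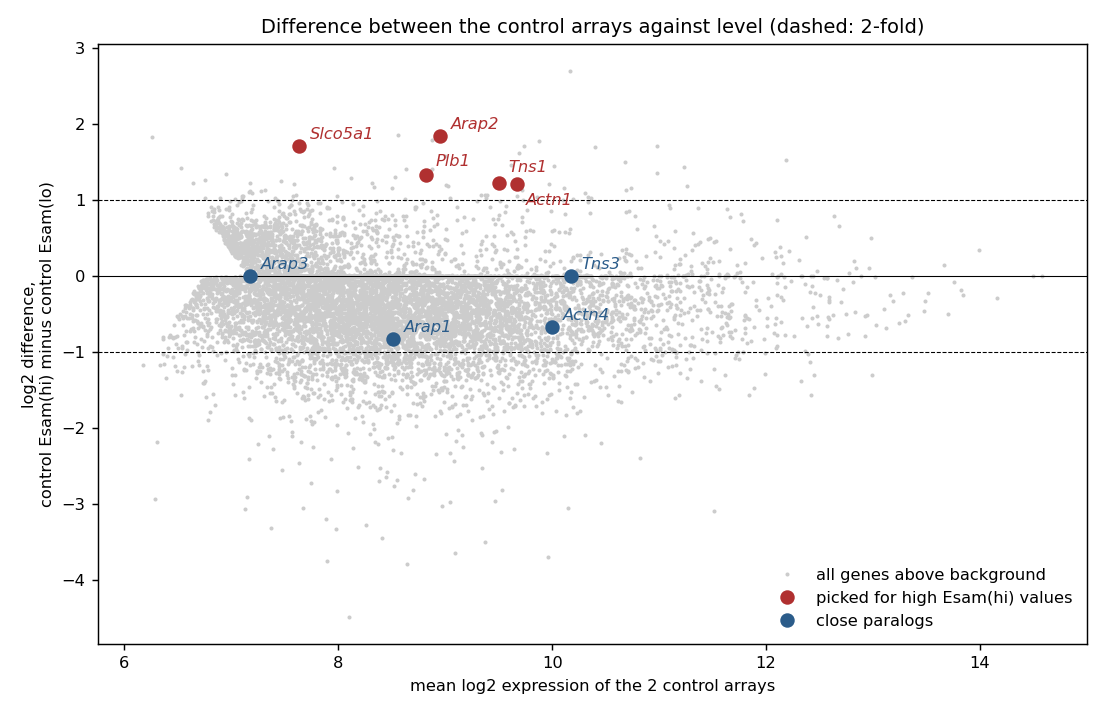
Difference between the control arrays (vertical axis, log2, Esam(hi) minus Esam(lo)) against the mean log2 expression of those arrays (horizontal axis) for 9210 genes above background; dashed lines mark 2-fold. The 5 picked genes (red) lie above the upper line among 75 such genes, Arap3 and Tns3 (blue) lie on 0, and Arap1 and Actn4 lie among the many genes below 0.

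In the related lists described here, no gene was 2-fold brighter in control Esam(hi) than in control Esam(lo) cells. The lists were chosen from general knowledge, with earlier results of these data known. Of all genes above background, 0.814% were called higher and 11.6% lower on the control Esam(hi) array in this comparison. Lists this short without a higher gene are thus near the share for all genes, and nothing is read from it. Of 20 further ArfGAP genes none was 2-fold apart in any comparison on the deposited values (median centring put Adap2 past 2-fold). Over all genes, 12.4% were apart in either direction between the controls and 0.266% between the Esam(lo) arrays. Between the RBPJ-deficient and the control Esam(hi) arrays the share was 14.1%. The control median of the ArfGAP genes, -0.33 beside -0.32 for all genes, turned to 0.11 with the level trend removed.

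Partners of tensin and actinin at adhesion sites mostly had lower values on the control Esam(hi) array, as did most genes. Of 21 focal adhesion genes measured 14 were above background, and 13 of these had lower values there and 1 was tied (median -0.54, and -0.15 with the trend removed). Vcl, which encodes vinculin, read 7.40 on the control Esam(hi), 8.68 on the control Esam(lo) and 8.77 on the RBPJ-deficient array, 2.42-fold lower on the Esam(hi) than on the control Esam(lo) array. Zyx, encoding zyxin, a partner of alpha-actinin, was 2.25-fold lower, with 9.33, 10.50 and 10.26. With quantile normalization or the trend removed Vcl alone of this list was 2-fold apart. The other tensins, Tns2 and Tns4, were below background on all arrays.

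Among actin and its crosslinkers 12 of 19 measured genes were above background, 10 of them with lower values on the control Esam(hi) array, 1 tied and 1, Fscn1, higher by 0.36 (median -0.60, and -0.18 with the trend removed). Lower values there were common, in 71.0% of single-gene probe sets above background. Fscn1 encodes fascin, which bundles actin in the protrusions of mature DCs. Sptbn1, encoding a spectrin of the membrane skeleton, was at least 2.96-fold lower on the control Esam(hi) array, where it was below background at 6.78, against 8.73 on the control Esam(lo) and 8.71 on the RBPJ-deficient array. It remained 2-fold apart with quantile normalization and with the trend removed. Msn, encoding moesin, which ties actin to the membrane, read 10.66 on the control Esam(hi), 11.63 on the control Esam(lo) and 11.66 on the RBPJ-deficient array. The Esam(lo) arrays differed by 0.04. On the deposited values Msn was 2.00-fold brighter on the RBPJ-deficient Esam(lo) than on the control Esam(hi) array, which differ in subset and genotype. With quantile normalization or the trend removed this difference was short of 2-fold. In that comparison 12.9% of all genes were called higher. Between the controls, median centring put 3 of the list, Flna, Sptbn1 and Msn, past 2-fold toward lower Esam(hi) values, and it did so for 1464 of 9586 genes above background.

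Of 13 other phospholipase genes 11 were above background between the controls, and 3 of them were 2-fold dimmer in Esam(hi) cells, with none brighter (median -0.52, beside -0.32 for all genes, and -0.10 with the trend removed); over all genes the dimmer share was 11.6%. Pla2g7, which breaks down platelet-activating factor, was 4.25-fold lower, with 8.12 on the control Esam(hi), 10.20 on the control Esam(lo) and 9.74 on the RBPJ-deficient array. Lypla1, a lysophospholipase and thioesterase, was 2.57-fold lower and Plbd2, a lysosomal phospholipase B-like gene, 2.20-fold lower. Pla2g7 and Lypla1 stayed 2-fold apart with quantile normalization, and Pla2g7 alone with the trend removed. Between the Esam(lo) arrays no gene of any of these lists was 2-fold apart, where only 0.266% of all genes were.

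**Figure D4:**
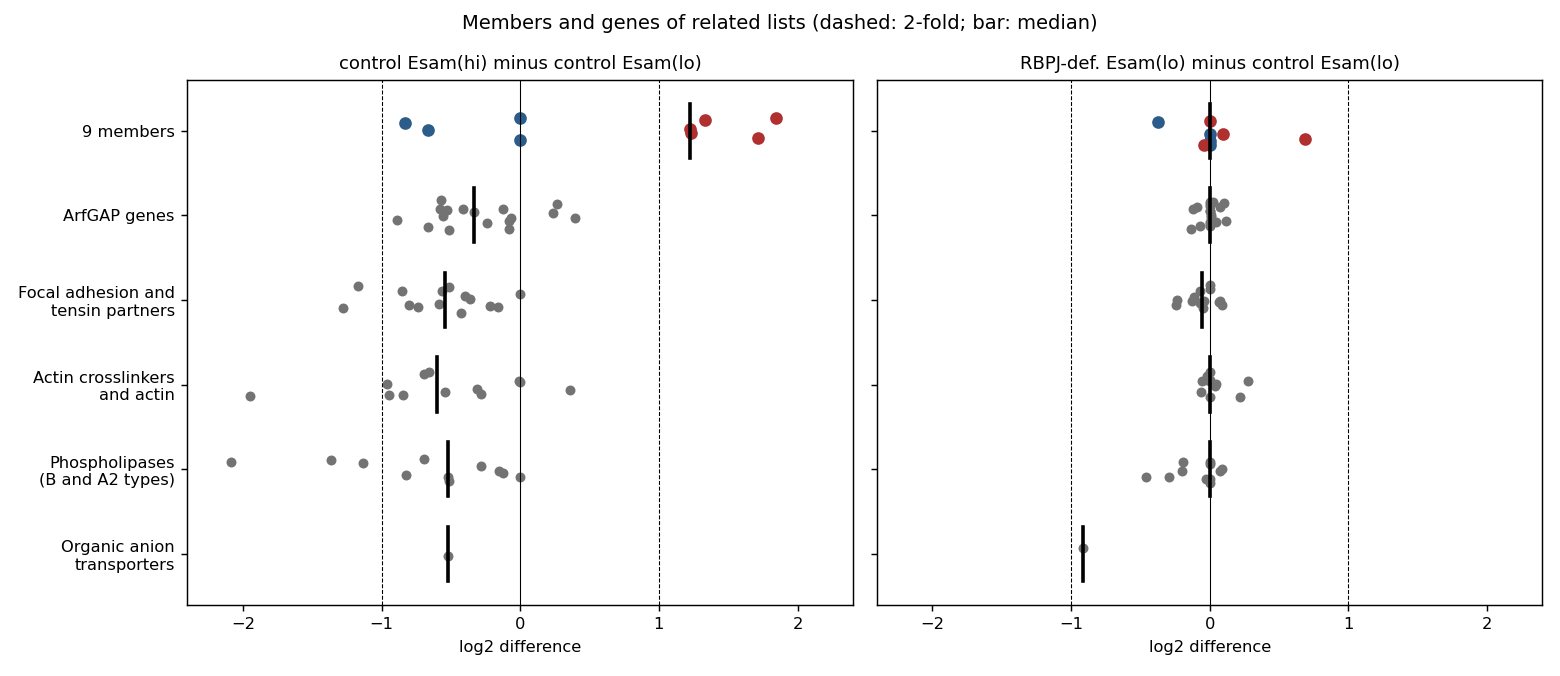
Log2 differences (horizontal axis) of the 9 genes (red, picked for high Esam(hi) values; blue, paralogs) and of related genes whose brighter array was above background (grey), by list (vertical axis), between the control arrays (left) and between the Esam(lo) arrays (right); bars mark medians and dashed lines 2-fold. The picked genes lie beyond 1 on the left, where the list medians lie between -0.33 and -0.60. On the right, with each gene shown by its probe set of highest mean, Slco5a1 at 0.68 lies farthest from 0 among the 9. Tns1 lies at 0 there by a tie, although its probe set 10355534 differed by -0.67.

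The genes with the most similar profiles were found by Euclidean distance between log2 values centred on each gene's mean over the 3 arrays, among 7671 protein-coding genes above background on the control Esam(hi) array. Nearest to Arap2 were Ifnz (distance 0.06), Krtap5-3 (0.30) and Frmd5 (0.45). Cdhr3, a cadherin-related gene, was nearest to Tns1 (0.01) and to Plb1 (0.10), and Lce1j and Slc4a8 were nearest to Actn1 (0.01 and 0.03). Krtap10-10 was among the nearest 3 of Tns1, Actn1 and Plb1. Nearest to Slco5a1 were Adam23 (0.19), which read 11.96 on the control Esam(hi), 10.51 on the control Esam(lo) and 11.10 on the RBPJ-deficient array, the cytokine gene Tnf (0.20), with 10.74, 9.29 and 9.74, and Scn3a (0.34), which passed background on the control Esam(hi) array alone. On the RBPJ-deficient array Cdhr3 and Frmd5 were also below background, so their distances rest in part on values not above it. Candidates had to pass background on the array where the picked genes were high, and with 3 arrays such likeness rests on 3 values per gene.

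Lymphoid and erythroid cells had been depleted on columns before the sort. Markers of other cell types were read beside the differences, because endothelial cells, platelets and stromal cells also make actinin and tensin. Of 11 endothelial markers only Pecam1, which leukocytes express too, was above background, at 8.76 on the control Esam(hi) array and 8.69 on both others; Cdh5, Tek, Tie1 and Kdr were below it on all arrays. Of 9 platelet markers measured, in the same array order, 4, 3 and 2 were above background, and the log2 of their summed level was 10.08, 10.01 and 9.99. Of the 4, the platelet receptor genes Itga2b and Treml1 and the tubulin gene Tubb1 had higher values on the control Esam(hi) than on the control Esam(lo) array, with differences of 0.63, 0.61 and 0.33, and Itgb3 a lower one (-0.56); their median was 0.47, beside -0.32 for all genes. Pf4, Ppbp, Gp9 and Gp5 were below background throughout. Of 9 stromal markers 2, 3 and 2 were above background (summed level 9.98, 9.56 and 9.47), with Col1a1, a collagen gene, at 8.40, 7.72 and 7.44 and Dcn, Lum and Pdgfrb below background. Of 4 erythroid markers only Slc4a1 was above background, on the control Esam(hi) array alone (summed level 8.68, 8.21 and 8.17). The part of these cells in the values of the 9 genes was not tested.

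Of the other blood cell types, monocytes and macrophages had 6 markers called lower on the control Esam(hi) array and none higher, with 5, 7 and 7 of 9 above background (log2 of the summed level 12.20, 14.33 and 14.32). Neutrophil markers were above background in 7 of 7 cases on each array (12.93, 14.08 and 14.17). Between the controls 5 of the 7 were called lower on the Esam(hi) array, whereas the granule enzyme genes Mpo and Elane had higher values there, by 0.96 and 0.35; Mpo passed 2-fold with quantile normalization and with the trend removed, where 3 neutrophil markers were called lower. For natural killer cells 1, 2 and 2 of 5 were above background (9.85, 11.03 and 11.00). B cell markers gave 2, 1 and 1 of 7 (9.53, 9.79 and 9.89) and T cell markers 3 of 6 on each array (9.82, 9.80 and 9.81). The part of these differences in the lower values of Arap1, Actn4, Vcl, Sptbn1 and Pla2g7 on the control Esam(hi) array was not tested.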

How the data were processed

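The authors deposited 1 log2 expression value for each probe set on each array, made with RMA in Affymetrix Expression Console, per the submitters' processing notes. The sources used here give neither versions nor which arrays were normalized together. RNA was amplified and biotin-labelled with whole-transcript kits, per the labels' protocols. Of 35556 probe sets, 21789 name 1 gene, 1621 several and 12146 none in the platform annotation; 1 gene per probe set was required, and 21698 Entrez numbers matched the gene table of GRCm38.p6, with no symbol changed. Of a gene's several probe sets the one of highest mean stood for it, and every member probe set is also given. A fold is a lower bound, taken against the background level, where the dimmer value fell below it. With 1 array per group no test was possible, and precision is limited by the few arrays. Alternatives were median centring, quantile normalization, removal of the level trend (lowess, fraction 0.3, statsmodels 0.14.6), no filter, the 99th percentile as background, a 1.5-fold rule and the mean over a gene's probe sets. Applying the scalings to the related lists was added after seeing the data. The counting was tested on simulated data without ties, with shifts placed in genes well above background. It was thus not tested for tied values or values near background. Members and lists were chosen with earlier results of these data known. Named genes were all members, related-list genes at least 2-fold apart (at most 4 per list and comparison) and the 3 nearest profiles of each picked member. Scripts ran in Python 3.11.15 with pandas 2.3.3. The planned comparison of protein sequences was not made. One related list is not reported here.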

Additional observations from a re-analysis of the deposited data

How the results depend on the processing

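With the mean over each gene's probe sets, 3 genes in place of 5 were 2-fold apart between the controls, and likewise 3 between the RBPJ-deficient and the control Esam(hi) arrays (Arap2, Actn1 and Slco5a1), since Tns1 then differed by 0.35 and -0.73 and Plb1 by 0.40 and -0.42. With a 1.5-fold rule 7 genes were apart between the controls (Arap1 and Actn4 were added, both lower on the Esam(hi) array), 6 between the RBPJ-deficient and the control Esam(hi) arrays (Actn4 was added), and 1, Slco5a1, was apart between the Esam(lo) arrays, where none was at 2-fold. Every other count was within 1.5 times its main value. No paired analysis was possible because each group has 1 array, and no array could be left out. Arap3, near background on the control Esam(hi) array, could show no decrease there.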
